A study of Mus musculus with 6 samples.

Results

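CCT, also called TRiC, is the chaperonin of the cytosol, and its 8 subunit genes Tcp1, Cct2, Cct3, Cct4, Cct5, Cct6a, Cct7 and Cct8 were followed in mouse 2T3 cells kept in simulated microgravity or in static culture. The members were all probe sets of the deposited table that the platform's probe table assigns to one of these symbols. There were 25 of them among 45101 in the table, each assigned to a single gene, and 22 were bright enough to be tested among 27022. The 8 genes stood among 12554 genes with a tested probe set.

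The rotated group comprised 3 samples of 2T3 cells held for 3 days in a rotating wall vessel, a turning fluid-filled chamber used on the ground to imitate microgravity. The static group comprised 3 samples of the same line and time without rotation, and both groups were at passage 8 to 10. 2T3 is a clonal mouse calvarial pre-osteoblast line immortalised with a viral T antigen, so all samples carry that antigen and derive from 1 clone. The titles call the other group by the letter R alone, read here as rotated; for static 2 and static 3 the source field names simulated microgravity, and the title was followed. Nothing in the labels states that samples of a group were cultured apart, so p-values describe the spread between these arrays, which may be technical.

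CCT subunits sit side by side in a ring, and a pair of rings stacked back to back encloses a chamber in which newly made actin and tubulin reach their folded form. ATP drives the closing of the chamber. In yeast the subunits differ in how tightly they bind ATP: those matching Tcp1, Cct2, Cct4 and Cct5 lie on the tight-binding side of the ring, and those matching Cct3, Cct6a, Cct7 and Cct8 on the other. Prefoldin hands unfolded actin and tubulin to the chaperonin, and osteoblasts need both filaments for shape, spreading and secretion of matrix.

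The arrays were not alike in quality. Rotated 1 had the highest 3' over 5' signal ratio of the actin controls, 3.21. The 2 remaining rotated arrays had 1.57 and 1.48, and no static array exceeded 1.37; such a ratio is usually higher where RNA is less intact. The same ratio for the transferrin receptor controls was 8.92, 2.73 and 2.67 in rotated samples 1 to 3, against 1.62, 3.71 and 2.95 in static samples 1 to 3. For the GAPDH controls it was 0.875, 0.787 and 0.760 in rotated samples, against 0.867, 0.748 and 0.792 in static samples, so rotated 1 stood apart in the first 2 control genes and not in GAPDH. Static 1 was brightest at the dim end, where 10% of its signals lay under 22.1 and at most 7.2 was reached elsewhere. Of 10 markers of pre-osteoblasts and mesenchymal cells all 10 passed the brightness filter, and their summed deposited signal was 68747 to 85104 in rotated samples and 89388 to 101144 in static samples. That sum rested on bright genes such as Col1a2 and Sparc. The bone markers Alpl, Ibsp and Pth1r were dim, with at most 103.6, 189.2 and 370.4 in any sample. Lists for leukocytes, endothelium, epithelium and muscle had 3 of 4, 1 of 4, 1 of 4 and 1 of 3 markers above it, and none of them summed to more than 494.8 in any sample. Above the filter lay Cd68, Lyz2 and Laptm5 for leukocytes, Kdr for endothelium, Epcam for epithelium and Des for muscle. The other markers of these lists, among them Ptprc, Pecam1, Cdh5, Myod1 and Myog, lay below the filter. Among adipocyte markers Adipoq lay below it, and Fabp4 was bright, with 2439 to 2877 in rotated samples and 2931 to 4698 in static samples. The part of array quality and of cell identity in the values below was not tested. Because each array measured a whole culture, fewer expressing cells and less RNA per cell cannot be told apart.

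No CCT transcript passed the test. Cct4 and Cct3 stood highest in the rotated samples, with log2 differences (rotated minus static, ± limma's standard error, n = 3 per group) of 0.65 ± 0.25 and 0.60 ± 0.23, which are 1.57-fold and 1.52-fold. Cct6a stood at 0.28 ± 0.17, while Cct7, Cct5, Cct2 and Tcp1 lay between -0.03 and 0.10, and Cct8 stood at -0.22 ± 0.18. These values refer to the brightest probe set of each gene, which represents it. With limma and Benjamini-Hochberg adjustment over all tested probe sets, 0 of the 22 CCT probe sets were called at 0.05, against 0% of all tested probe sets, and adjusted p lay between 0.592 and 0.983.

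At an unadjusted p under 0.05, 3 CCT probe sets were higher in the rotated samples, against 4.34% of all tested probe sets, and 0 were lower, against 3.9%. These 3 belonged to Cct3 and Cct4, and without rotated 1 there was 1, 1416024_x_at of Cct3, against 1.86% of all. With array weights, which count the noisier arrays less, 8 were higher at this limit, against 10.1% of all. In 5 of the 22 all rotated values lay above all static ones, against 7.82% of all, and in 0 they lay below, against 7.29%. The difference lay above 0 for 19 of the 22, against 52.6% of all, and the median was 0.25 over the CCT probe sets and 0.03 over all. Without rotated 1, 15 of the 22 lay above 0 and the median was 0.14. Several of these probe sets read the same transcript, so they are not independent. By gene, 6 of 8 lay above 0, against 53.2% of all genes, with a median of 0.09, against 0.03. The groups did not overlap for 2 of the 8 genes, Cct3 and Cct4, against 8.29% of all genes in that direction.

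**Figure D1:**
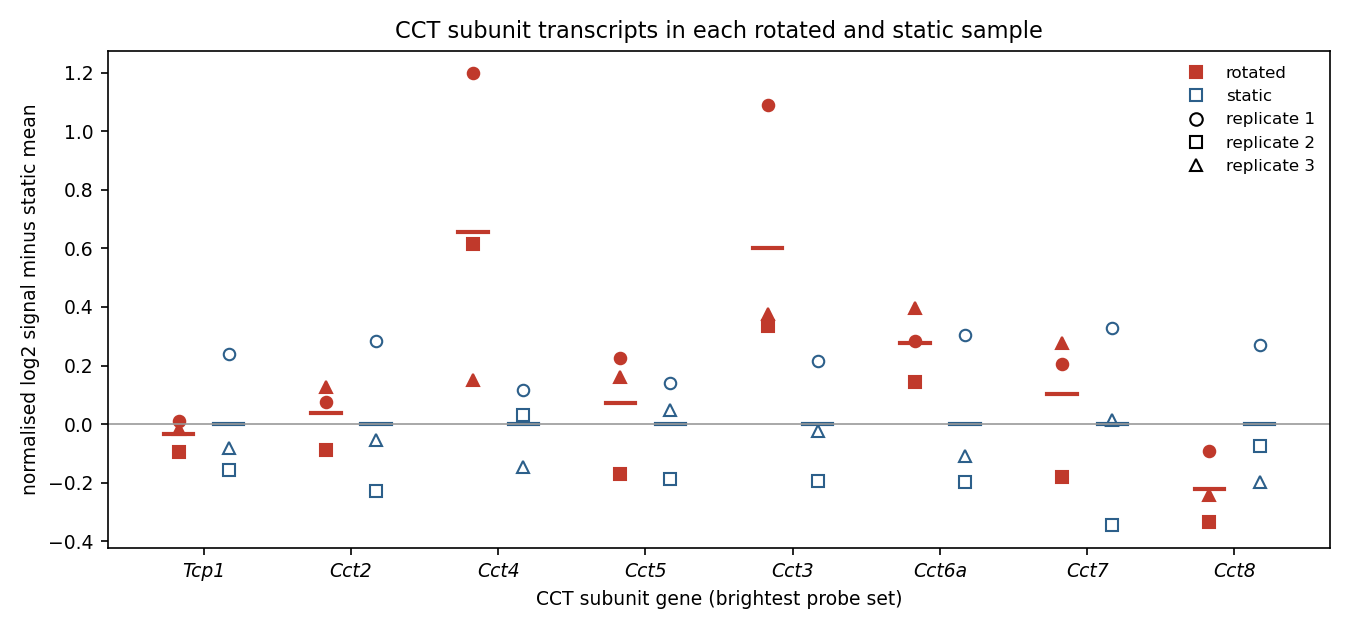
Normalised log2 signal of the brightest probe set of each CCT gene, relative to the mean of the static samples (vertical axis), for rotated samples (filled red) and static samples (open blue); symbols give the replicate and bars the group mean. Rotated 1 stands 1.20 and 1.09 above the static mean for Cct4 and Cct3, while for Tcp1, Cct2, Cct5 and Cct7 the groups overlap around 0.

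On the tight-binding side, Tcp1, the founding subunit of the family, gave deposited signals of 14207, 11838 and 11520 in rotated samples 1 to 3, against 12986, 11178 and 10815 in static samples 1 to 3. On the normalised log2 scale it averaged 13.54 ± 0.05 in rotated samples and 13.57 ± 0.21 in static samples (SD, n = 3 each). The difference was -0.03 ± 0.16, with a 95% interval from -0.39 to 0.32, and the groups overlapped. Cct2, whose protein has also been described as an autophagy receptor for protein aggregates, gave 18543, 14416 and 15321 in rotated samples, against 16443, 12954 and 13143 in static samples. Its difference was 0.04 ± 0.17 (95% interval -0.34 to 0.42), and 0.02 without rotated 1. Sample 1 had the highest deposited signal in each group.

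Of the other Cct2 probe sets, 1416037_a_at lay near the brightest one, at 0.02 ± 0.17. Probe set 1433534_a_at stood at 0.46 ± 0.20, with normalised log2 values of 13.19, 12.85 and 12.57 in rotated samples, against 12.17, 12.54 and 12.51 in static samples. All its rotated values lay above all static values on this scale, though not in the deposited signals, and it was higher in the rotated sample of each same-numbered pair. Without rotated 1 it stood at 0.30, and without rotated 1 and static 1 together at 0.18.

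Cct5, a subunit whose mutation causes a sensory neuropathy in people, gave deposited signals of 14065, 9505 and 11247 in rotated samples, against 10204, 9482 and 10119 in static samples. Its normalised difference was 0.07 ± 0.17 (95% interval -0.32 to 0.46), and -0.0047 without rotated 1. Rotated 1 was the highest sample and rotated 2 lay among the static ones, so the groups overlapped.

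Cct4, the subunit mutated in the mutilated foot rat, a neuropathy model, was read by 7 probe sets, all tested. The brightest, 1433447_x_at, gave 18447, 10612 and 7250 in rotated samples, against 6662, 7102 and 5944 in static samples. The groups did not overlap, but rotated 3 lay just above the highest static sample and rotated 1 far above all others. The difference was 0.65 ± 0.25 (95% interval 0.09 to 1.22, limma adjusted p 0.592), and without rotated 1 it was 0.38. Normalised log2 SD was 0.52 in rotated samples and 0.13 in static samples.

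Probe sets of Cct4 disagreed in size and in 1 case in sign. Probe set 1415867_at gave 8150, 5997 and 6907 in rotated samples, against 6598, 5475 and 5606 in static samples, and a difference of 0.16 ± 0.18, and 0.10 without rotated 1. There the groups overlapped, with static 1 among the rotated values. Probe set 1438560_x_at gave 7970, 4623 and 2959 in rotated samples, against 3118, 3395 and 2890 in static samples, at 0.52 ± 0.29, and 0.20 without rotated 1. In that probe set rotated 1 was again the highest sample and rotated 3 lay among the static ones. The remaining 4, with dimmer signal, lay between -0.65 ± 0.62 (1415868_at) and 0.86 ± 0.49 (1430034_at), and each of their 95% intervals included 0. Without rotated 1 these ends stood at -1.06 and 0.35, with 1456082_x_at at 0.18 and 1456572_x_at at -0.24 between them. The suffix x marks probe sets with probes that may also bind other transcripts, and it is carried by 4 of the 7 Cct4 probe sets, the brightest among them. The brightest Cct2 probe set, 1433535_x_at, and 1416024_x_at and 1426067_x_at of Cct3 carry it too.

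On the other side of the ring, Cct3 was read by 7 probe sets, of which 5 were tested, and all 5 lay above 0. The brightest, 1448178_a_at, gave 17859, 9206 and 8874 in rotated samples, against 7404, 6402 and 6676 in static samples. Every rotated value exceeded every static value, and rotated 1 exceeded the other rotated samples by more than these exceeded static 1. The difference was 0.60 ± 0.23 (95% interval 0.09 to 1.11, limma adjusted p 0.592), and 0.36 without rotated 1.

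A further Cct3 probe set, 1416024_x_at, behaved alike: 13758, 9526 and 9101 in rotated samples, against 6202, 7756 and 6404 in static samples. Again the groups did not overlap, at a difference of 0.54 ± 0.17, with the smallest unadjusted p of any tested CCT probe set (0.0095, limma adjusted p 0.592). Without rotated 1 it stood at 0.43. The other tested Cct3 probe sets stood at 0.11 ± 0.21 (1449645_s_at), 0.17 ± 0.17 (1459987_s_at) and 0.32 ± 0.35 (1426067_x_at), with overlapping groups on the normalised scale. Without rotated 1 they stood at 0.03, 0.18 and -0.06. Within Cct3 and Cct4 the size of the difference therefore depended on the probe set.

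Cct6a, the widely expressed zeta subunit, gave 16893, 13327 and 14718 in rotated samples, against 13071, 10495 and 10236 in static samples. These deposited signals did not overlap, while the normalised ones did, with static 1 among the rotated values. The difference was 0.28 ± 0.17 (95% interval -0.12 to 0.67), and 0.27 without rotated 1. Its other probe set, 1455988_a_at, stood at 0.31 ± 0.15 with groups that did not overlap, and 0.22 without rotated 1. Of the genes with several tested probe sets, Cct6a was the one whose probe sets gave the nearest values, and neither passed (limma adjusted p 0.655 and 0.610).

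Cct7, the eta subunit, gave 6075, 4322 and 5690 in rotated samples, against 5529, 3925 and 4743 in static samples, a normalised difference of 0.10 ± 0.22 (95% interval -0.39 to 0.60), and 0.05 without rotated 1. Its other probe set, 1415817_s_at, stood at 0.26 ± 0.22. In both, the groups overlapped. Cct8, the theta subunit, gave 7007, 5432 and 5597 in rotated samples, against 7373, 6633 and 5728 in static samples. Its difference was -0.22 ± 0.18 (95% interval -0.63 to 0.19), the only brightest probe set besides that of Tcp1 below 0, and 0.0049 with median centring of the arrays.

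The 3 untested members were dim, with deposited signals of at most 70.4: 2 of Cct3 and 1 of Cct8. Fitted without the filter, their differences lay between -1.29 and -0.34. Probe set 1451915_at of Cct3 gave 12.3, 10.6 and 2.7 in rotated samples, against 59.0, 32.4 and 66.6 in static samples. That direction was opposite to that of the bright Cct3 probe sets, at signals near the dim end of the table, where 20% of all values lay under 16.6.

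**Figure D2:**
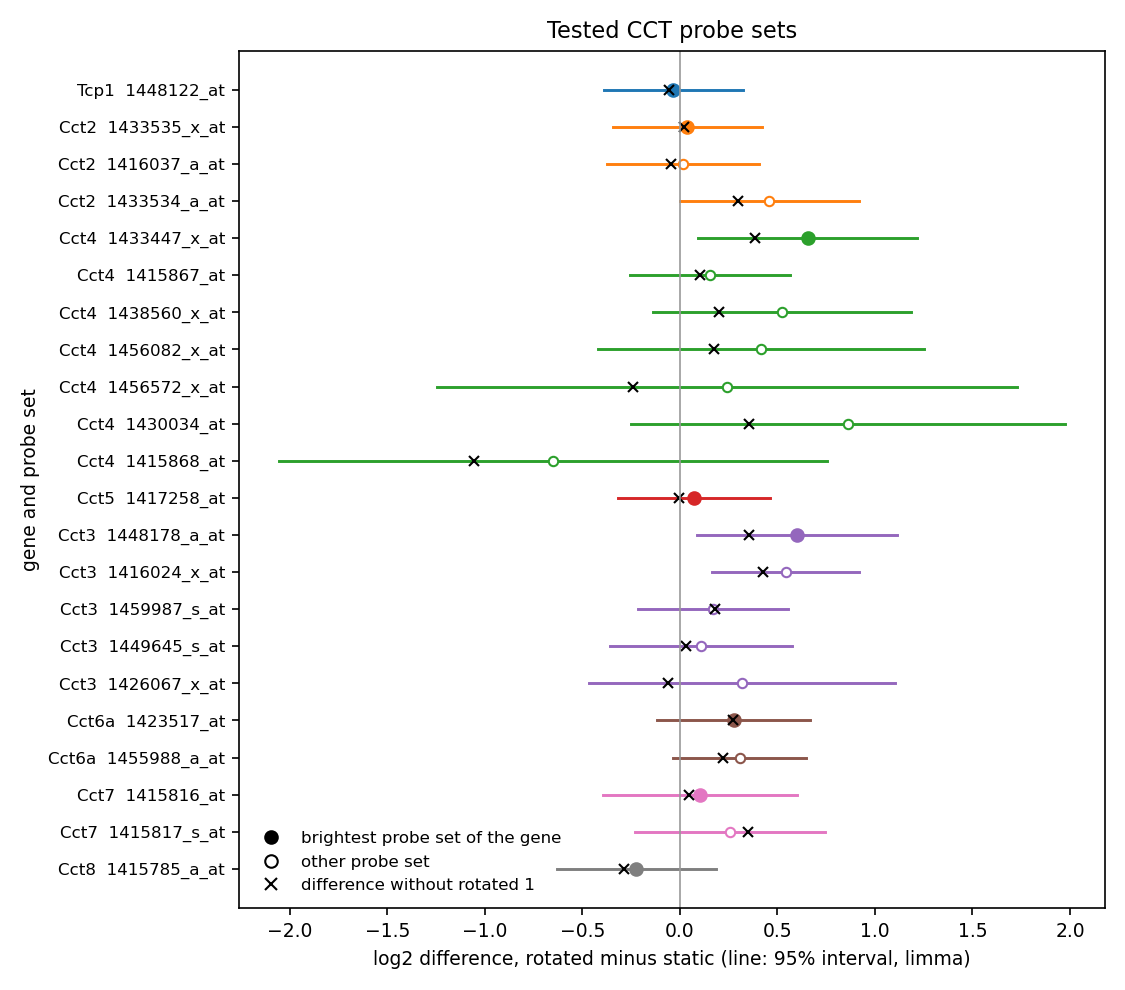
Log2 difference (rotated minus static, horizontal axis) of the 22 tested CCT probe sets, with limma's 95% interval as a line; filled circles are the brightest probe set of each gene, open circles the others, and crosses the difference without rotated 1. Only 3 intervals, those of 1433447_x_at, 1448178_a_at and 1416024_x_at, lie wholly above 0, and the crosses of Cct4 lie left of the circles.

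Samples bearing the same number deviated together, so the differences were also read within each pair. For Cct4 they were 1.08, 0.58 and 0.30 in pairs 1, 2 and 3, and for Cct3 0.88, 0.53 and 0.40. Cct6a differed by -0.02, 0.34 and 0.51, and Cct7 by -0.12, 0.17 and 0.26. Tcp1 differed by -0.23, 0.06 and 0.07, and Cct2 by -0.21, 0.14 and 0.18. Cct8 was lower in the rotated sample of each pair, by -0.36, -0.26 and -0.04. Pair 1 thus held both the largest positive values, for Cct4 and Cct3, and the lowest values of every other gene but Cct5.

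Of the 22 CCT probe sets, 10 were higher in the rotated sample of all 3 pairs, against 21.9% of all tested probe sets. By gene, Cct3, Cct4 and Cct5 were, Cct5 by only 0.09, 0.02 and 0.11 in pairs 1, 2 and 3. The share over all genes was not computed. In the fit with the replicate number as a block, 6 CCT probe sets were higher at an unadjusted p under 0.05, against 7.29% of all, where the unblocked fit had 3. With the block 0 of the 22 were called, against 0.0074% of all tested probe sets, and the smallest adjusted p in limma was 0.227, for 1448178_a_at of Cct3.

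**Figure D3:**
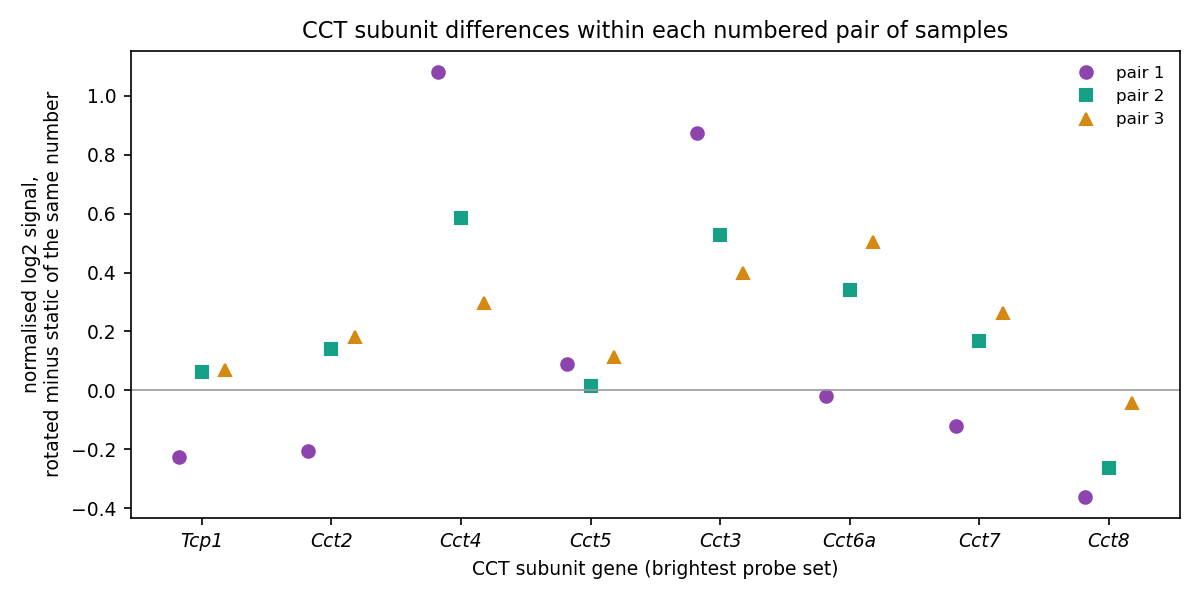
Difference in normalised log2 signal between the rotated and the static sample of the same number (vertical axis), for the brightest probe set of each CCT gene; each symbol is 1 of the 3 pairs. Cct3 and Cct4 lie above 0 in all pairs, Cct8 lies below 0 in all pairs, and pair 1 lies below 0 for Tcp1, Cct2, Cct6a, Cct7 and Cct8.

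Subunits also moved between samples of one group. Taken over the 8 brightest probe sets, the mean deviation from the static mean was 0.38, 0.03 and 0.15 in rotated samples 1 to 3, against 0.24, -0.17 and -0.07 in static samples 1 to 3. Static 1 was above the static mean for 8 of 8 genes and thus exceeded rotated 2 and rotated 3 in this mean. The SD over subunits was 0.49, 0.32 and 0.21 in the rotated samples, against 0.08, 0.11 and 0.08 in the static ones, with Cct4 and Cct8 at the ends in rotated 1 and rotated 2. In the static samples the subunits therefore stood closer together, relative to the static mean that these samples themselves set. Without rotated 1, the median over the 8 genes was 0.03, with 5 of 8 above 0; without static 1 it was 0.22, with 7 of 8; and without both it was 0.19, with 7 of 8.

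Scaling mattered for genes this bright. Of the 22 tested CCT probe sets, 17 lay above the 90th percentile of brightness among all tested ones. There the median difference of all probe sets was 0.03 with quantile normalisation, 0.13 with the values as deposited and 0.26 with median centring. Over all tested probe sets these medians were 0.03, -0.03 and 0.10. The CCT probe sets had medians of 0.25, 0.24 and 0.38 under the same settings, with 19, 20 and 21 of the 22 above 0. Of all tested probe sets 52.6%, 47.0% and 59.5% lay above 0. Of those above the 90th percentile of brightness 53.3%, 64.3% and 76.6% did. Cct4 stood at 0.65, 0.78 and 0.91 and Cct3 at 0.60, 0.73 and 0.87, while Tcp1 stood at -0.03, 0.10 and 0.24.

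The promoters of the subunits were read from RefSeq, build GRCm38.p6, as windows from 250 bases before to 50 bases after an annotated start. There were 9 such windows for 7 of the 8 genes. Cct2 and Cct5 each had a further window that lay inside the gene. The window of Cct3, which had the largest difference among these 7 genes, is shown. Shown too are the gene-start window of Cct5 and the window of Cct6a, which hold the inverted core of a heat shock element. In capitals are matches to CCAAT on either strand and to TTCNNGAA, the palindromic pair of half-site letters that heat shock factors bind.
Cct3, chr3:88296885-88297184, plus strand: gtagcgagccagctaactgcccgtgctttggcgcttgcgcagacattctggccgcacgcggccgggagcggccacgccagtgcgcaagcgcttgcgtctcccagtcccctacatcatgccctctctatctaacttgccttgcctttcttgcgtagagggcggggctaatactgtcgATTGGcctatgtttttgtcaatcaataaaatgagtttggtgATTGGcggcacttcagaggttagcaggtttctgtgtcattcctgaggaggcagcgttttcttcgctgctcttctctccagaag
Cct5, chr15:31601797-31602096, minus strand: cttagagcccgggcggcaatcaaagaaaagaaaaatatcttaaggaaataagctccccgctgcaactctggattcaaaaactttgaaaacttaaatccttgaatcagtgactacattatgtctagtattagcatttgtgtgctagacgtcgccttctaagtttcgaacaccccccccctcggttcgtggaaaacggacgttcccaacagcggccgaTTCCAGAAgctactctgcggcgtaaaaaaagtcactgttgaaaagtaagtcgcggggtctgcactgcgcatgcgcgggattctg
Cct6a, chr5:129787106-129787405, plus strand: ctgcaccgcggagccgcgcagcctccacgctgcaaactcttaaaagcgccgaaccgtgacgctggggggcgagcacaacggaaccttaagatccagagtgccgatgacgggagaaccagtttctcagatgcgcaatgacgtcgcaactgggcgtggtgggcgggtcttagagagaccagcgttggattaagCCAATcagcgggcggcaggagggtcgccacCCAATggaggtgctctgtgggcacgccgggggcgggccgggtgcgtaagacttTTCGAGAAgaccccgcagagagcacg

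The letters TTCNNGAA occurred in 2 of the 9 windows, as TTCCAGAA beginning 34 bases before the Cct5 start and as TTCGAGAA beginning at base 25 after the Cct6a start. They occur in 8.52% of the 32851 windows in the table. The opposite phase, GAANNTTC, was found for Cct2 alone, in 1 of the 9 windows, and occurs in 7.86% of all. That window of Cct2 was the one inside the gene. CCAAT, searched on both strands, was present for Cct3, Cct6a, Cct7 and Tcp1, in 4 of the 9 windows, against 37.4% of all windows. The GC box GGGCGG was present on either strand for 7 of 7 genes, in 8 of their 9 windows, against 35.7% of all.

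The proteins around the chaperonin were read by their brightest probe sets, and no gene of these lists passed the test. Of 8 prefoldin genes and their relatives, which deliver clients to CCT, 6 lay above 0 and 2 below, with a median of 0.07, against 0.03 over all genes. Pfdn2 stood at -0.50 ± 0.30, Pfdn5 at -0.29 ± 0.23, Pfdn1 at 0.27 ± 0.24 and the prefoldin-like Uri1 at 0.35 ± 0.35, and 0 of the 8 had an unadjusted p under 0.05 in limma. Of the phosducin-like cofactors, which bind CCT, 3 were tested: Pdcl stood at -0.21 ± 0.23, Pdcl3 at 0.14 ± 0.21 and Txndc9 at 0.33 ± 0.28. Without rotated 1 these 3 stood at -0.17, 0.07 and 0.02, and Pfdn2, Pfdn5 and Uri1 at -0.26, -0.15 and 0.13.

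The tubulin folding cofactors Tbca to Tbce take tubulin released by CCT and assemble the dimer. In their list, which also held Tbcel and Arl2, 6 of 7 genes lay above 0, with a median of 0.16. Tbca, which holds beta-tubulin, stood at 0.28 ± 0.18, Tbcel at 0.33 ± 0.31, Tbcd at 0.27 ± 0.27 and Tbce at 0.16 ± 0.25. Within both lists no difference exceeded 1.42-fold; without rotated 1 Tbca, Tbcel, Tbcd and Tbce stood at 0.17, 0.32, 0.07 and 0.02, and the median of the tubulin cofactors was 0.17.

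Among the clients, 7 of 7 tested actin genes and relatives lay below 0, with a median of -0.57, and -0.15 without rotated 1. The median of -0.57 was the value of Acta1. Acta1 and Actc1 were dim, with mean log2 values of 5.77 and 5.86 in rotated samples, under the filter limit of 5.96. They passed the filter only through their static values, which averaged 6.35 and 6.76, so their direction is not independent of the filter. With the values as deposited 2 of the 7 lay above 0, and with median centring 3 did. The cytoplasmic actins, the main substrates of CCT, had small differences whose sign depended on the scaling. Actb gave 28045, 25368 and 22458 in rotated samples, against 28575, 22993 and 23431 in static samples. On the normalised scale all rotated values of Actb lay below all static ones, against 7.29% of all tested probe sets. Its normalised difference was -0.19 ± 0.13, and it was 0.02 with the values as deposited and 0.15 with median centring. Actg1 stood at -0.15 ± 0.14, and likewise at 0.07 and 0.21 under those scalings. The smooth and cardiac muscle actins stood lower, Actg2 at -0.92 ± 0.43, Actc1 at -0.90 ± 0.41 and Acta2 at -0.59 ± 0.38. Acta2 gave 6333, 18303 and 12144 in rotated samples, against 12587, 21832 and 12310 in static samples, so rotated 1 was the low sample. Without rotated 1, Actg2, Actc1 and Acta2 stood at -0.49, -0.59 and -0.14.

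Of 11 tubulin genes, 4 lay above 0 and 7 below, with a median of -0.06. With median centring 8 lay above 0 and the median was 0.13. Tubb5, an abundant beta-tubulin, stood at -0.21 ± 0.14, and at -0.03 and 0.11 with the other scalings. Tubb2b stood at -0.76 ± 0.35 and Tubb3 at -0.61 ± 0.39. Without rotated 1 Tubb2b stood at -0.68, Tubb3 at -0.17 and Tubb5 at -0.14. Tuba4a, an alpha-tubulin, stood apart: 5239, 3241 and 2972 in rotated samples, against 1515, 1366 and 1647 in static samples, a difference of 1.23 ± 0.23 (limma adjusted p 0.428). Tuba1b was not analysed here. Other clients, which include beta-propeller proteins, lay below 0 for 7 of 9 genes, among them Gnb2 at -0.89 ± 0.49, Gnb1 at -0.56 ± 0.39, Hdac3 at -0.55 ± 0.30 and Plk1 at -0.41 ± 0.29. Rotated 1 was the lowest sample for each of these 4 genes, and without it they stood at -0.22, -0.07, -0.20 and -0.33. The median of these clients was -0.36, and -0.20 without rotated 1.

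Of the HSP70 and HSP90 machinery of the cytosol 14 of 14 tested genes lay above 0, with a median of 0.46, and 0.27 without rotated 1 with 13 of 14 above 0. At an unadjusted p under 0.05 there were 5 higher, against 4.49% of all genes, and with the replicate block 8, against 8.23%; 0 were called in either fit. Hspa1a, a stress-inducible HSP70, gave 820, 726 and 407 in rotated samples, against 221, 283 and 160 in static samples, a difference of 1.56 ± 0.36 (limma adjusted p 0.526). The brighter Hspa1b gave 13290, 9963 and 4471 in rotated samples, against 2817, 7823 and 3752 in static samples. Its groups overlapped, at a difference of 0.84 ± 0.41. Hsph1, Hspa4l and Hspb1 stood at 1.39 ± 0.28, 1.06 ± 0.24 and 0.96 ± 0.21.

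The mitochondrial chaperonin Hspd1, a relative of CCT in another compartment, and its lid Hspe1 stood at 0.49 ± 0.26 and 0.77 ± 0.22. Without rotated 1 they stood at 0.36 and 0.55. Hspe1 gave 12004, 6689 and 6449 in rotated samples, against 4666, 4041 and 4573 in static samples, without overlap. Bbs12 and Bbs10, CCT-related proteins that assemble the BBSome of cilia, stood at 0.22 ± 0.27 and 0.13 ± 0.34, and at 0.02 and -0.08 without rotated 1. The median over the 5 tested genes of this list of other chaperonins and chaperonin-like proteins was 0.22, and 0.02 without rotated 1, both being the value of Bbs12. Set beside these lists, the CCT median by gene of 0.09 lay near that of prefoldin, below that of the HSP70 and HSP90 machinery and above those of the clients; whether the lists differ was not tested. The HSP list and the Tuba4a value were known from earlier results of these data and are no independent support.

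**Figure D4:**
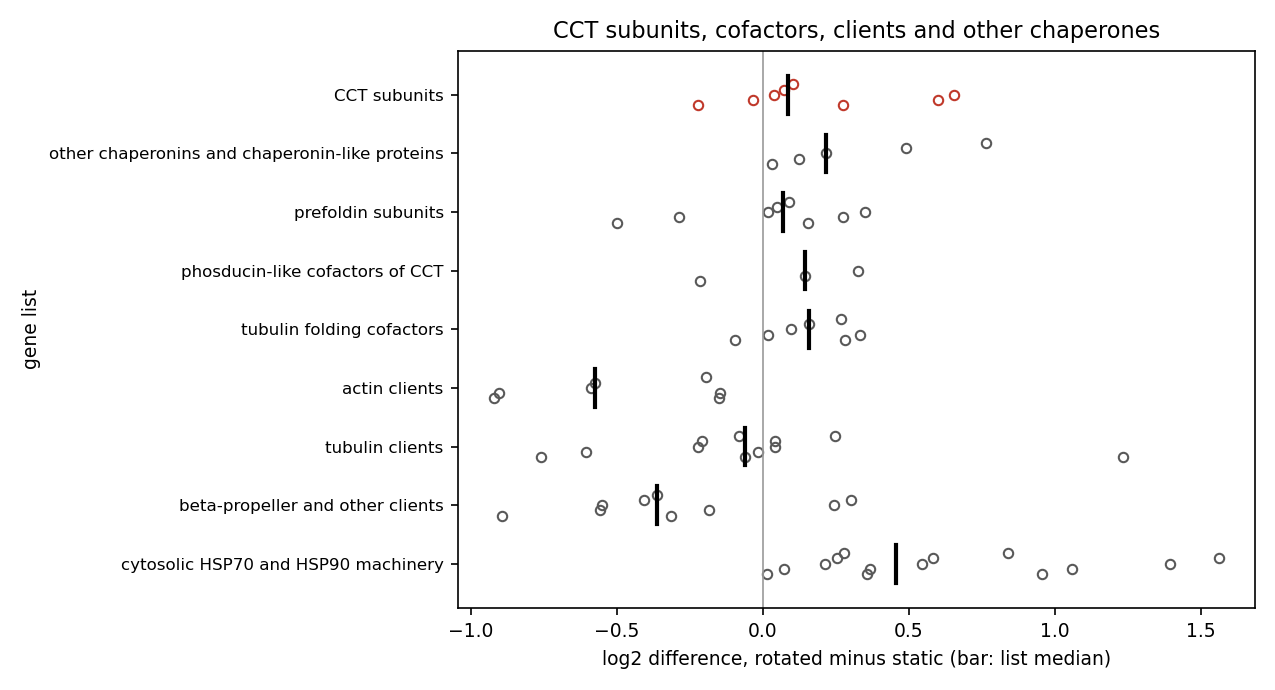
Log2 difference (rotated minus static, horizontal axis) of each tested gene, by its brightest probe set, in 9 gene lists (vertical axis); the bar is the median of the list, and CCT subunits are in red. CCT subunits spread from -0.22 to 0.65, the HSP70 and HSP90 machinery lies between 0.01 and 1.56, and the actin genes lie between -0.92 and -0.15.

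The genes whose pattern over the 6 arrays was nearest to the mean CCT pattern were Ss18, Haus6, Armc10, Mtpn, Ggnbp2 and Trim44. Likeness was the root mean square distance between centred normalised log2 values, and it lay between 0.027 and 0.045 for these 6, with a median of 0.37 over 12546 genes. A gene that did not vary at all would lie at 0.18, the root mean square of the mean CCT pattern itself. The mean CCT pattern was 0.28, -0.06 and 0.06 in rotated samples 1 to 3, against 0.14, -0.26 and -0.16 in static samples 1 to 3. Ss18, the nearest, had 0.24, -0.05 and 0.09, against 0.12, -0.23 and -0.16, and its own difference was 0.18 ± 0.18. Among the subunits, Cct5, Cct6a and Cct2 were nearest to the mean of the others, at 0.12 to 0.13, and Cct4 and Cct3 were farthest, at 0.40 and 0.29.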

How the data were processed

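Total RNA was hybridised to 1-colour Affymetrix arrays, 1 per sample. The deposited values are intensities on a linear scale, 1 per probe set and array; the authors' summary software is not given in the sources used here. The trimmed mean was 500.0 on every deposited array, so the arrays had been scaled to a common target. Gene symbols come from the platform's probe table and were brought up to date by gene identifier with RefSeq's GRCm38.p6 table.

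Values were transformed as log2(value + 16.6), the 20th percentile of all values, which understates differences of dim probe sets. Array medians differed by 85.9%, above a tolerance of 10%, so quantile normalisation was applied. The 64 control probe sets, and probe sets with a mean under the 40th percentile (log2 5.96), were left out. Rotated and static samples, grouped by their titles, were compared over 27022 probe sets by two-sided moderated tests of limma 3.58.1 under R 4.3.3, fitted with lmFit and with eBayes allowing an intensity trend, and with Benjamini-Hochberg adjustment at 0.05. Limma was checked on data simulated with arrays that varied independently and equally. That check does not cover arrays that deviate together or differ in noise, as these did. The number of arrays limits the precision.

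Deviations from the group mean correlated at 0.196, 0.313 and 0.334 in same-numbered pairs and at -0.19 to -0.09 in others. The pairing comes from this check alone, since the labels do not explain the numbers; deviations within a group sum to 0, so positive values for some pairings go with negative ones for others.

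Named were all CCT probe sets, up to 4 genes with the smallest p per list together with Actb, Actg1, Tubb5 and Tuba1b, and the 6 genes nearest the mean CCT pattern. Acta1 and Hspa1b were named in addition, to state limits. Members and lists were chosen with earlier results of these data known. Alternatives were other scalings, offsets, filters and variance models, the replicate block, array weights, averaging a gene's probe sets and each sample left out; leaving out rotated 1 and static 1 together was chosen after seeing the data.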

Additional observations from a re-analysis of the deposited data

How the results depend on the processing

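Over 18 alternatives no CCT gene was called, with adjusted p in limma between 0.130 and 0.999 wherever a test was made, and 13 of 144 gene values changed sign, those of Tcp1, Cct2, Cct5, Cct7 and Cct8. Tcp1 was 0.10 with the values as deposited, 0.24 with median centring, 0.0086 with array weights and 0.065 without rotated 1 and static 1 together. Cct8 was 0.0049 with median centring. With array weights Cct5 was -0.061 and Cct7 -0.00047. When 1 sample was left out, Tcp1 ranged from -0.11 to 0.086, Cct2 from -0.076 to 0.18, Cct5 from -0.021 to 0.19 and Cct7 from -0.071 to 0.27. The median over CCT genes, 0.087, was 0.33 with median centring and ranged from -0.046 without static 2 to 0.22 without static 1. The number of CCT probe sets called was 0 under every alternative with a test. Those at an unadjusted p under 0.05 and higher, 3 in the unblocked fit, were 8 with array weights, 6 with the block and 1 without rotated 1. The shares of all tested probe sets in these 4 fits were 4.34%, 10.1%, 7.29% and 1.86%. Over all probe sets 2 were called with the replicate block and 22 with array weights, against 0; the weights were 0.41, 2.55 and 0.81 in rotated samples and 0.35, 1.01 and 3.32 in static samples. The cause of these changes was not tested. The block changed the call of no CCT probe set. With 3 arrays per group, the 95% intervals of 6 of the 8 genes included 0.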
